A study of Mus musculus with 12 samples.

Results

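Chromatin is written, erased and read by enzymes and binding proteins that set marks on DNA and on the histones around which it is wrapped. DNA methyltransferases, Polycomb complexes and some histone methyltransferases place marks that go with silent genes, other methyltransferases and the acetyltransferases place marks that go with active genes, and demethylases and deacetylases remove them. Bromodomain proteins bind acetylated histones, and remodelling enzymes move or evict nucleosomes. In the hippocampus these proteins are known for their part in learning and memory and in the fate of neural progenitors, and the genes that encode them are active in neurons and glia alike.

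The genes described here are 46 autosomal chromatin genes named by their function, of which 44 had a value among the 756 genes of the deposited table and 42 averaged at least 20 normalised counts over the 12 samples, the level set for testing. They comprised 5 DNA methylation genes, 6 Polycomb genes, 10 histone methyltransferases and their partners, 5 histone demethylases, 6 deacetylases and corepressors, 5 acetyltransferases, and 5 readers and remodellers. Ring1 and Kmt2c were not analysed here. Dnmt3b, a de novo DNA methyltransferase, and Hist1h1d, a linker histone, averaged 18.7 and 18.9 normalised counts and fell just below the minimum, while the lowest gene kept, Kdm4d, averaged 32.2.

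The RNA of the hippocampus was read on the Mouse Neuroinflammation panel of the NanoString nCounter, an assay that hybridises colour-coded probes to RNA molecules and tallies them singly with no amplification step. The first group was 4 5xFAD mice that drank TPPU, an inhibitor of soluble epoxide hydrolase, at 3 mg/kg in 1% polyethylene glycol 400 for 2.5 months from 2 months of age. The second was 4 5xFAD mice that received the same polyethylene glycol alone (5xFAD vehicle), and the third 4 non-transgenic littermates on that vehicle. 5xFAD mice carry transgenes under the neuronal Thy1 promoter and form amyloid plaques early. The labels call every mouse male, and the design has no non-transgenic group on TPPU.

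The deposited values were probe counts scaled by the authors to 10 housekeeping genes, and total probe counts ran from 1050334 to 1314362 per mouse. The lowest of the 16 neuronal markers, Grin2a, averaged 1188 normalised counts over all mice. The summed level of these markers was 111076 to 151708 in 5xFAD TPPU mice, 106770 to 141799 in 5xFAD vehicle mice and 124787 to 133681 in non-transgenic mice. The 8 microglial markers summed to 5792 to 18841 in 5xFAD TPPU mice and 13534 to 30436 in 5xFAD vehicle mice, against 4905 to 5946 in non-transgenic mice. The 12 oligodendrocyte markers summed to 62689 to 98478 in 5xFAD TPPU mice, 41387 to 80534 in 5xFAD vehicle mice and 69465 to 102351 in non-transgenic mice, and the 5 astrocyte markers to 18050 to 23509, 21042 to 29426 and 16909 to 21371 in the same order of groups. Ttr, a choroid plexus transcript, stood at 4270 normalised counts in mouse 1 of the 5xFAD vehicle group and 16461 in mouse 4 of the non-transgenic group, and between 77.1 and 284 in the others. In 6 mice, 2 of each group, the Y-linked genes Uty and Kdm5d lay between 14.2 and 33.5 normalised counts, against 306 to 518 in the other 6, which conflicts with the male label. These are bulk samples, so fewer cells of a type and less RNA per cell cannot be told apart.

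On the deposited scale, Dot1l, Setdb1 and Ehmt2 were the only chromatin genes in which a whole group lay apart from all other mice. This is described further on, and their promoters are shown here. Each is the 300-base RefSeq window (GRCm38.p6) from 250 bases before to 50 after the transcription start, written 5′ to 3′ on the gene's strand, with CG dinucleotides in capitals. Ehmt2 has 2 annotated starts.
Dot1l (chr10:80754953-80755252, + strand): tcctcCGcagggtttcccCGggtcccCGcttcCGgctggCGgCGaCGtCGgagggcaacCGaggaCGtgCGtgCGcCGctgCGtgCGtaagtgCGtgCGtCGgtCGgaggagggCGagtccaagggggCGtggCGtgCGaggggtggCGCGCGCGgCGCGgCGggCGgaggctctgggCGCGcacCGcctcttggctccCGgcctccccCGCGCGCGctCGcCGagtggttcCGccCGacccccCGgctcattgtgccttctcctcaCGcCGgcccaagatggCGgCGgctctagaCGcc
Setdb1 (chr3:95357153-95357452, − strand): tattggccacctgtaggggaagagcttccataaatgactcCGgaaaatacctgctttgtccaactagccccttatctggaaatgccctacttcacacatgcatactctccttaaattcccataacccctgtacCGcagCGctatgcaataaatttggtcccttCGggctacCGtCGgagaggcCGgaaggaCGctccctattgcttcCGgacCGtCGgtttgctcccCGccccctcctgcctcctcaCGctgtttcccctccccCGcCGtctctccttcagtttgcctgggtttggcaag
Ehmt2, first start (chr17:34898224-34898523, + strand): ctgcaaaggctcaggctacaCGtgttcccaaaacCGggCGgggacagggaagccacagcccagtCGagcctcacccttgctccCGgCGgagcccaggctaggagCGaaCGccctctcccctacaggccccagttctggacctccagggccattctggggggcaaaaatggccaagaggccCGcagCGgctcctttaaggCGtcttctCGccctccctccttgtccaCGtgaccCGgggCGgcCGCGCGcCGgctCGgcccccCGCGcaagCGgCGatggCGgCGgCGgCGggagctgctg
Ehmt2, second start (chr17:34898720-34899019, + strand): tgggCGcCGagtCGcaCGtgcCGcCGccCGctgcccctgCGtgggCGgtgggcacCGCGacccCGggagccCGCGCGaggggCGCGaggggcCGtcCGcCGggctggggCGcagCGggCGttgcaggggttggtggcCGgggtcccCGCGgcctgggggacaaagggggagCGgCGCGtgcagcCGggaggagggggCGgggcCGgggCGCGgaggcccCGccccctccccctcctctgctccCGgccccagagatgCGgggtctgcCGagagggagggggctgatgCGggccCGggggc

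The Dot1l window held 49 CG dinucleotides at 76.33% G and C, the Setdb1 window 15 at 55.33%, and the Ehmt2 windows 28 and 40 at 70.33% and 82.67%. Both Dot1l and Setdb1 carried the ETS-type motif CCGGAAG, and Dot1l also carried the YY1-type motif AAGATGGC, whereas neither Ehmt2 window carried any of the 5 motifs searched. RefSeq windows were found for 38 of the 42 genes, 52 windows in all. Of these, 43 (82.7%) were rich in CG, with over 50% G and C and a CG content above 0.6 of that expected from base composition, against 48.7% of 686 windows of the other genes tested and 33.3% of all 32851 windows of that length. CCGGAAG was in 8 (15.4%) of the chromatin windows, 9.18% of those of other tested genes and 8.86% of all. A 10-letter NRF1-type palindrome was in 3 chromatin windows of 2 genes, Dnmt1 and Brd2 (5.77%), against 0.583% and 0.971%, and AAGATGGC in 3 windows (5.77%), against 2.62% and 2.75%. The E2F-type motif TTCCCGC was in 2 (3.85%), against 8.31% and 4.6%, and TATAAA in 2 (3.85%), against 10.4% and 13.6%. Both strands were searched, and no motif contains another. A match describes the letters in the window and is not evidence of binding.

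On the deposited scale no chromatin gene passed the test in any of the 3 comparisons, and the intervals of their changes were narrow. In 5xFAD vehicle against non-transgenic mice, 0 of 42 genes were called by limma at an adjusted p under 0.05, against 18.7% of all 695 genes tested, all of them higher. In 5xFAD TPPU against 5xFAD vehicle mice 0 of 42 were called, against 0% of all genes, and in 5xFAD TPPU against non-transgenic mice 0 of 42, again against 0%. At an unadjusted p under 0.05 there were 1, 2 and 2 chromatin genes in these comparisons, against 29.1%, 18.1% and 14.7% of all genes. The TPPU comparison and the transgene comparison share the 5xFAD vehicle mice, and the third comparison shares a group with each.

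The 95% intervals of the changes show how large a difference the data still allow on the deposited scale. They leave out the uncertainty of the scaling, and the counts below were made on that scale only. In 5xFAD vehicle against non-transgenic mice the interval lay within 1.5-fold either way for 41 of 42 chromatin genes, all but Kdm4d, against 46% of all genes tested. The count was also 41, again all but Kdm4d, in 5xFAD TPPU against 5xFAD vehicle mice, against 50.4% of all genes. It was 40 in 5xFAD TPPU against non-transgenic mice, all but Kdm4d and Dot1l, against 52.9%. Within the tighter limit of 1.25-fold lay 28, 21 and 29 chromatin genes, against 19.7%, 17.8% and 21.3% of all genes. With each mouse centred on its median, Hdac2 changed by −0.44 ± 0.11 log2 units (SE) in the first comparison. On the deposited scale its change was −0.15 ± 0.08.

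**Figure D1:**
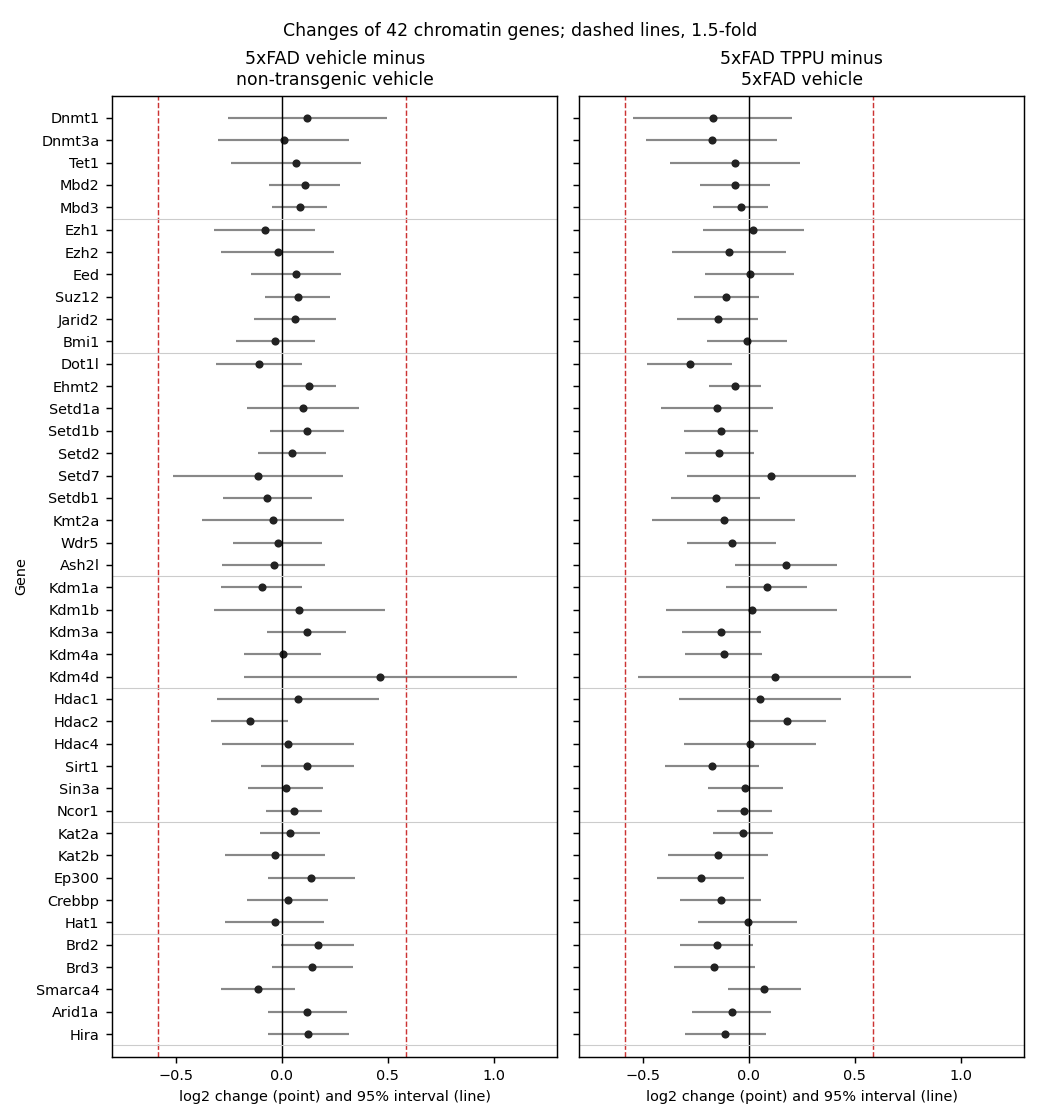
Log2 changes (points) with 95% intervals (lines) of 42 chromatin genes, by class from DNA methylation (top) to readers and remodellers (bottom), for 5xFAD vehicle minus non-transgenic mice (left) and 5xFAD TPPU minus 5xFAD vehicle mice (right), 4 mice per group, on the deposited scale. Dashed lines mark 1.5-fold, and in both panels only the line of Kdm4d crosses one.

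The narrow intervals went with a small spread between mice of the same group. The median SD within groups was 0.111 log2 units for the chromatin genes and 0.265 for all genes tested, and 40 of the 42 lay below 0.265. Among genes averaging at least 200 normalised counts, the medians were 0.109 for 40 chromatin genes and 0.203 for all 439 genes. Ehmt2 had the smallest SD, 0.043, followed by Mbd3 at 0.052, Ncor1 at 0.056 and Kat2a at 0.056, while Setd7 reached 0.284 and the low-count Kdm4d 0.440. These values were computed on the deposited scale only. They describe the list and were not tested.

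**Figure D2:**
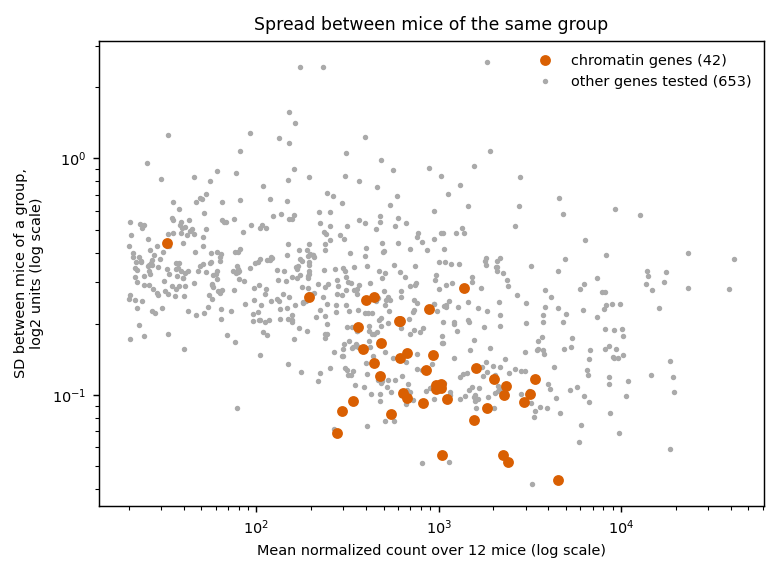
SD between mice of the same group (log2 units, log axis) against the mean normalised count over 12 mice (log axis), for 42 chromatin genes and the other 653 genes tested, on the deposited scale. Most chromatin genes sit at the lower edge of the cloud, from Ehmt2 at 0.043 to Kdm4d at 0.440.

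Values in this paragraph are on the deposited scale, where the chromatin genes as a group lay closer to no change than the panel did. After median centring or quantile normalisation the chromatin genes did not lie closer, as given further on. Their median change was 0.05 log2 units in 5xFAD vehicle against non-transgenic mice, where that of all genes was 0.13, and 28 of 42 estimates were above 0, against 72.2% of all genes. It was −0.08 in 5xFAD TPPU against 5xFAD vehicle mice, where that of all genes was −0.12, with 11 of 42 above 0, against 29.6%. It was −0.02 in 5xFAD TPPU against non-transgenic mice, where that of all genes was 0.06, with 17 of 42 above 0, against 63%. By mouse, the median difference of the chromatin genes from the non-transgenic mean ran from −0.06 to 0.04 log2 units in 5xFAD TPPU mice, 0.01 to 0.10 in 5xFAD vehicle mice and −0.06 to 0.08 in non-transgenic mice, so that the groups overlapped.

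**Figure D3:**
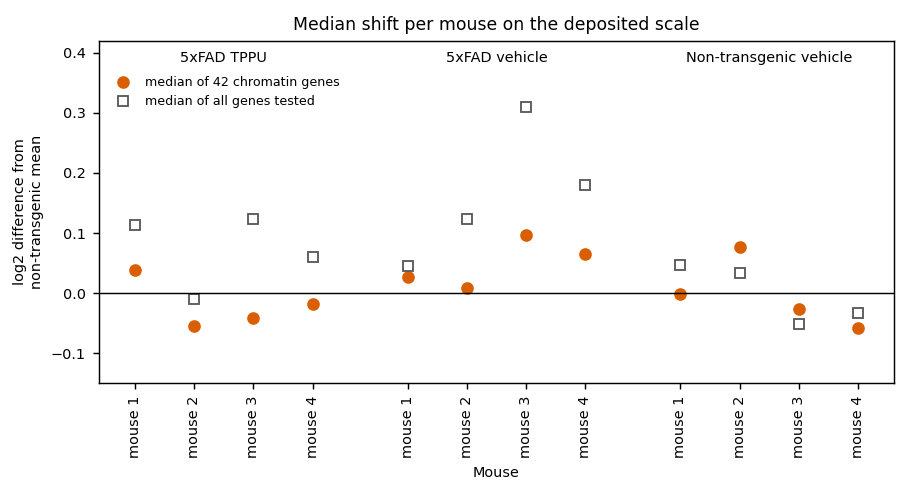
Median log2 difference from the non-transgenic mean, per mouse, of 42 chromatin genes (filled circles) and of all 695 genes tested (open squares), on the deposited scale. The all-gene median reaches 0.31 in 5xFAD vehicle mouse 3, where the chromatin median is 0.10.

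The scaling decides the direction of most of these estimates. On the deposited scale the median level of the array was 0.28 log2 units higher in 5xFAD vehicle than in non-transgenic mice and 0.20 lower in 5xFAD TPPU than in 5xFAD vehicle mice. When each mouse was centred on its own median, 8 chromatin genes were called in 5xFAD vehicle against non-transgenic mice, all lower: Dot1l, Hat1, Hdac2, Kat2b, Kdm1a, Setdb1, Sin3a and Smarca4. On that scale 12.7% of all genes were called lower and 14.7% higher. Quantile normalisation called the same 8 and Eed, all lower, where 15% of all genes were lower and 11.5% higher. On the deposited scale 0 were called, and 0 also when each mouse was centred on the median of the chromatin genes, where 18.6% of all genes were called higher and 0.144% lower. Which scale is nearer to the RNA content of the tissue was not tested. The 8 genes were thus lower relative to the rest of the panel, and were not called on the scale of the housekeeping genes.

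Under median centring the median changes of the chromatin genes were −0.23, 0.12 and −0.10 log2 units in 5xFAD vehicle against non-transgenic, 5xFAD TPPU against 5xFAD vehicle and 5xFAD TPPU against non-transgenic mice, where those of all genes were −0.15, 0.083 and −0.02. The sign of the estimate turned, relative to the deposited scale, for 27, 29 and 13 of the 42 genes. Quantile normalisation turned it for 26, 23 and 13 genes, and centring on the chromatin genes' own median for 5, 4 and 3. The estimates that follow are on the deposited scale, and where one turns under median centring or quantile normalisation this is said beside it. Of the 5 genes with the smallest p in each comparison, the sign held under both for Hdac2 in 5xFAD vehicle against non-transgenic mice, for Ep300 and Hdac2 in 5xFAD TPPU against 5xFAD vehicle mice, and for Dot1l, Setdb1, Kdm4d, Kat2b and Kdm4a in 5xFAD TPPU against non-transgenic mice.

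By class, on the deposited scale, the medians of the estimates in 5xFAD vehicle against non-transgenic mice were 0.13 log2 units for readers and remodellers, 0.09 for DNA methylation genes, 0.08 for demethylases, 0.04 for deacetylases and corepressors, 0.03 for acetyltransferases, 0.02 for Polycomb genes and −0.03 for methyltransferases and partners. In 5xFAD TPPU against 5xFAD vehicle mice they were −0.13 for acetyltransferases, −0.13 for methyltransferases and partners, −0.11 for readers and remodellers, −0.07 for DNA methylation genes, −0.05 for Polycomb genes, −0.01 for deacetylases and corepressors and 0.01 for demethylases. All 5 DNA methylation genes were estimated above 0 in the first and all 5 below 0 in the second, though both comparisons use the same 5xFAD vehicle mice, all 10 signs turned under median centring, and no gene of the class passed the test. Under median centring and under quantile normalisation every class median lay below 0 in the first comparison and above 0 in the second. The direction of the class medians thus depends on the scaling. The classes differ in how many genes they hold, and no difference between classes was tested.

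**Figure D4:**
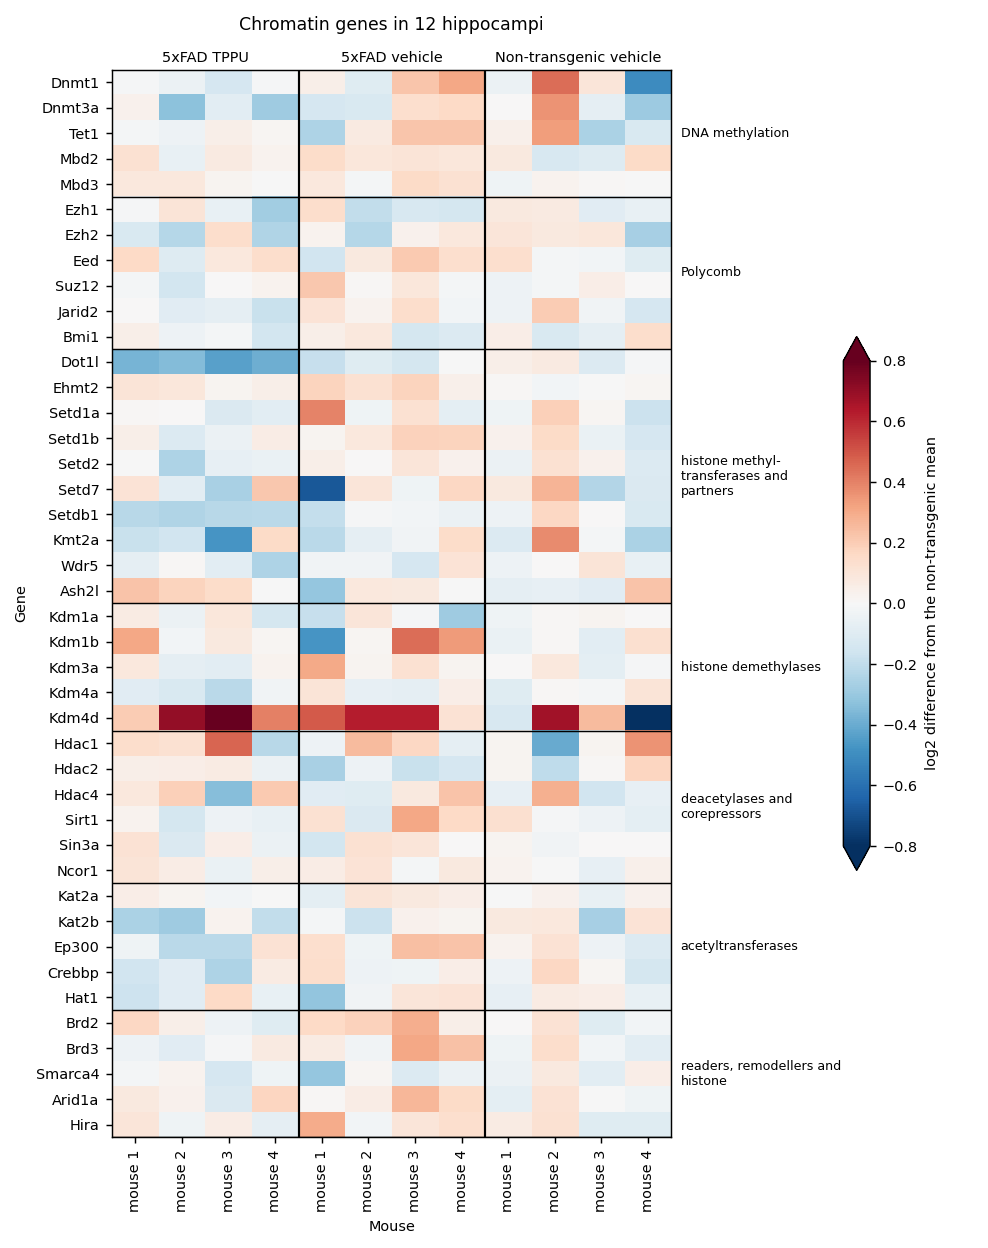
Log2 difference of each of 42 chromatin genes (rows, grouped by class) from its non-transgenic mean, in 12 mice (columns, 4 per group), with colours saturated at 0.8 either way. Dot1l is low in all 4 5xFAD TPPU mice and Kdm4d has the widest range.

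Among the DNA methylation genes, Dnmt1 encodes the methyltransferase that copies methylation onto newly made strands. It had 387, 377, 354 and 387 normalised counts in 5xFAD TPPU mice, 402, 364, 454 and 483 in 5xFAD vehicle mice and 377, 532, 417 and 275 in non-transgenic mice. The non-transgenic mice alone spanned the range of the other 8, with mouse 2 the highest and mouse 4 the lowest of all 12. Dnmt3a, the de novo methyltransferase that is abundant in neurons, had 643, 501, 592 and 515 normalised counts in 5xFAD TPPU mice, 573, 576, 689.8 and 701 in 5xFAD vehicle mice and 629.7, 805, 597 and 514 in non-transgenic mice. Dnmt3a had the smallest p of this class in 5xFAD TPPU against 5xFAD vehicle mice, with an estimate of −0.18 log2 units and overlapping groups (limma, adjusted p = 0.536). Its sign turned under median centring.

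Mbd2 and Mbd3 encode methyl-CpG-binding-domain proteins of the NuRD corepressor complex. Mbd2 had 3071, 2703, 2958 and 2880.4 normalised counts in 5xFAD TPPU mice, 3123, 2999.7, 3029 and 3003 in 5xFAD vehicle mice and 2982, 2579, 2622 and 3135 in non-transgenic mice. Mbd3 had 2469, 2473, 2373 and 2324 normalised counts in 5xFAD TPPU mice, 2477, 2303, 2593 and 2535 in 5xFAD vehicle mice and 2278, 2378, 2352 and 2324 in non-transgenic mice. For Mbd3, mice 1, 3 and 4 of the 5xFAD vehicle group were higher than every non-transgenic mouse while mouse 2 was among them, and the estimate was 0.09 log2 units (limma, adjusted p = 0.380), which turned sign under both scalings. Tet1, a dioxygenase that oxidises methylcytosine, ranged from 297 to 446 over the 12 mice, with changes of 0.07 in 5xFAD vehicle against non-transgenic mice and −0.07 in 5xFAD TPPU against 5xFAD vehicle mice, and did not pass the test. Both its signs turned under both scalings.

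The Polycomb genes encode subunits and partners of the complexes that methylate lysine 27 of histone H3 or bind that mark. Suz12, a core subunit of Polycomb repressive complex 2, had 1523, 1388, 1542 and 1572 normalised counts in 5xFAD TPPU mice, 1784, 1551, 1638 and 1521 in 5xFAD vehicle mice and 1496, 1521, 1594 and 1545 in non-transgenic mice. The highest 2 values were those of 5xFAD vehicle mice 1 and 3, and the lowest that of 5xFAD TPPU mouse 2. Ezh1, the catalytic subunit that predominates in cells that no longer divide, had 453, 491, 438 and 377 normalised counts in 5xFAD TPPU mice, 504, 399, 417 and 413 in 5xFAD vehicle mice and 481, 479, 429 and 438 in non-transgenic mice. Here 3 of 4 5xFAD vehicle mice lay below all non-transgenic mice, but mouse 1 was the highest of all 12.

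Jarid2, which recruits the same complex, had 640.4, 601, 608 and 566 normalised counts in 5xFAD TPPU mice, 688, 652, 705 and 631 in 5xFAD vehicle mice and 623, 736, 626 and 582 in non-transgenic mice. A single 5xFAD TPPU mouse reached into the range of the 5xFAD vehicle mice, and the estimate was −0.15 log2 units (limma, adjusted p = 0.397), which turned sign under median centring. The other members did not pass the test in any comparison on the deposited scale. After quantile normalisation Eed was called lower in 5xFAD vehicle against non-transgenic mice (−0.23 log2 units, limma, adjusted p = 0.0466). Ezh2, the catalytic subunit known from dividing cells, ranged from 415 to 549, Eed, which reads the mark within the complex, from 740.5 to 954, and Bmi1, of Polycomb repressive complex 1, from 887 to 1083. Their estimates lay between −0.09 and 0.07 log2 units in the transgene and TPPU comparisons on the deposited scale. Under both scalings the sign turned for Eed in the transgene comparison and for Ezh2 and Bmi1 in the TPPU comparison.

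Dot1l, the methyltransferase of lysine 79 of histone H3, had the smallest p of the 42 genes in both comparisons that involve TPPU. It had 238, 242, 228 and 235 normalised counts in 5xFAD TPPU mice, 270.5, 288, 279 and 307 in 5xFAD vehicle mice and 318, 324, 285 and 306 in non-transgenic mice. All 4 5xFAD TPPU mice lay below the other 8. The level was 236 ± 6.16 in 5xFAD TPPU mice, 286 ± 15.8 in 5xFAD vehicle mice and 308 ± 17.1 in non-transgenic mice (n = 4 each, SD). Against 5xFAD vehicle mice the change was −0.28 ± 0.09 log2 units (SE), or 0.824-fold with a 95% interval of 0.716 to 0.948, and the adjusted p was 0.204 (limma). In that comparison the change was −0.077 under median centring and 0.0029 after quantile normalisation. Against non-transgenic mice it was −0.39 ± 0.09, or 0.766-fold with an interval of 0.666 to 0.881, at an adjusted p of 0.167 (limma), and −0.47 and −0.46 under those scalings. 5xFAD TPPU mouse 2 had the highest Dot1l value of its group. Without that mouse the change against non-transgenic mice was called (limma, adjusted p = 0.0387). The share of all genes called under that omission is not given here, so the call cannot be read as particular to Dot1l. No other omission of a mouse led to a call of a chromatin gene in any comparison.

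Setdb1, which methylates lysine 9 of histone H3 and silences retroelements, showed the same order. It had 272, 268, 271 and 273 normalised counts in 5xFAD TPPU mice, 277, 314, 311 and 306 in 5xFAD vehicle mice and 307, 354, 317 and 290.1 in non-transgenic mice. The 4 5xFAD TPPU values lay within 5 counts of each other and below the other 8. The margin was narrow, 272.8 normalised counts in 5xFAD TPPU mouse 4 against 277.1 in 5xFAD vehicle mouse 1. How this margin and spread compare with counting error was not tested. Against non-transgenic mice the change was −0.22 ± 0.10 log2 units (SE), with 271 ± 2.14 in 5xFAD TPPU mice and 317 ± 27.1 in non-transgenic mice (n = 4 each, SD; limma, adjusted p = 0.300). Against 5xFAD vehicle mice it was −0.16 (limma, adjusted p = 0.413), and this sign turned under both scalings, to 0.046 under median centring and 0.11 after quantile normalisation.

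Of the 695 genes tested, Dot1l and Setdb1 were the only 2 (0.288%) in which all 4 5xFAD TPPU mice lay below all 8 others on the deposited scale. The pattern held when each mouse was centred on the median of the chromatin genes, and not when it was centred on the median of all genes. On the scale of the all-gene median the non-transgenic mice lay above the other 8 for both genes, and after quantile normalisation for Dot1l. Without reference to non-transgenic mice, 3 of 42 chromatin genes had all 5xFAD TPPU mice below all 5xFAD vehicle mice, against 4.32% of all genes, and 0 had them above, against 0.576%. The third was Setd2, the methyltransferase of lysine 36 of histone H3 in transcribed genes.

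Setd2 had 1851, 1557, 1766 and 1787 normalised counts in 5xFAD TPPU mice, 1915, 1859, 1981 and 1899 in 5xFAD vehicle mice and 1792, 2014, 1894 and 1718 in non-transgenic mice. The 5xFAD TPPU and 5xFAD vehicle ranges were separated by only 8 counts, and the non-transgenic mice spanned the whole 5xFAD vehicle range and overlapped both groups. The change with TPPU was −0.14 ± 0.07 log2 units (SE), with 1740 ± 127 in 5xFAD TPPU mice and 1914 ± 50.9 in 5xFAD vehicle mice (n = 4 each, SD; limma, adjusted p = 0.334). Its sign turned when each mouse was centred on its median.

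Ehmt2, which encodes the lysine 9 methyltransferase G9a, had 4607, 4567, 4362 and 4446 normalised counts in 5xFAD TPPU mice, 4859, 4682, 4862 and 4423 in 5xFAD vehicle mice and 4329.7, 4240.2, 4277 and 4336 in non-transgenic mice. It was the only chromatin gene in which every 5xFAD vehicle mouse was higher than every non-transgenic mouse, 1 of 42, against 21.6% of all genes, and 0 lay below, against 0.144%. All 4 5xFAD TPPU mice also lay above the non-transgenic mice, as in 6.19% of all genes, so that the 4 non-transgenic mice were below the other 8, as in 4.03%. The change in 5xFAD vehicle against non-transgenic mice was 0.13 ± 0.06 log2 units (SE), or 1.10-fold with an interval of 1.00 to 1.19, with 4707 ± 207 in 5xFAD vehicle mice and 4296 ± 45.5 in non-transgenic mice (n = 4 each, SD; limma, adjusted p = 0.149). When each mouse was centred on its median the estimate was −0.15. The non-transgenic mice did not lie below the other 8 under that centring, quantile normalisation or centring on the chromatin genes. The microglial markers were also higher in all 5xFAD vehicle mice than in the non-transgenic mice, by the summed levels given above, and their part in this result was not tested.

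**Figure D5:**
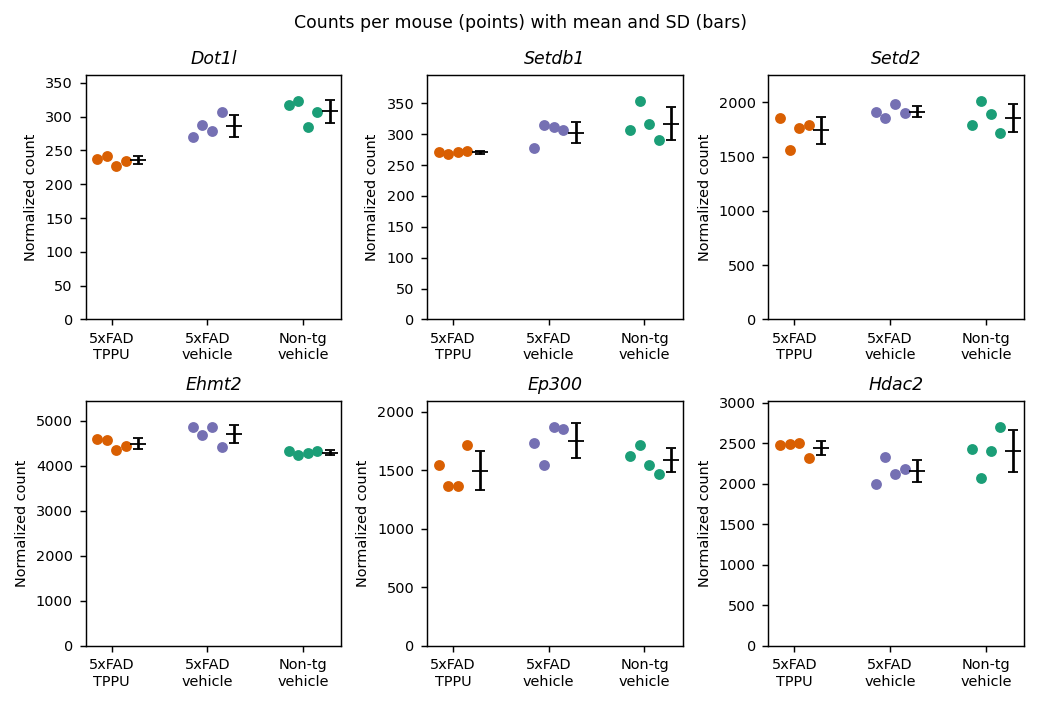
Normalised counts per mouse (points) with mean and SD (bars) of 6 chromatin genes in 5xFAD TPPU, 5xFAD vehicle and non-transgenic mice, 4 per group, on axes that start at 0. The 5xFAD TPPU mice lie below all others for Dot1l and Setdb1, and the non-transgenic mice lie below all others for Ehmt2.

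Setd1b, a lysine 4 methyltransferase, had 1121, 1005, 1053 and 1133 normalised counts in 5xFAD TPPU mice, 1105, 1153, 1236 and 1229 in 5xFAD vehicle mice and 1112, 1208, 1049 and 989.6 in non-transgenic mice. The groups overlapped, with an estimate of 0.12 log2 units in 5xFAD vehicle against non-transgenic mice (limma, adjusted p = 0.368), which turned sign under both scalings. Its paralogue Setd1a ranged from 334 to 496, the lysine 4 methyltransferase Kmt2a from 664 to 1197, and Wdr5 and Ash2l, scaffold subunits shared by these enzymes, from 291 to 373 and from 529 to 768. Setd7, a methyltransferase of lysine 4 and of non-histone proteins, ranged from 869 to 1677, with 5xFAD vehicle mouse 1 the lowest. None of these 5 passed the test in any comparison. In 5xFAD TPPU against non-transgenic mice 2 of the 42 chromatin genes had groups that did not overlap and were lower, Dot1l and Setdb1, against 0.863% of all genes.

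Of the demethylases, Kdm4d, which removes methyl groups from lysine 9, averaged 32.2 normalised counts, against a minimum for testing of 20. In the 6 mice low in the Y-linked genes, Uty read 15.2 to 33.5 and Kdm5d 14.2 to 22.8. The minimum lies within these low readings, and so do several Kdm4d values, while others lie above them. Whether Kdm4d stood above background was not tested, so its changes below may not reflect expression. Kdm4d had 27.7, 39.5, 50.3 and 31.9 normalised counts in 5xFAD TPPU mice, 34.0, 37.5, 37.5 and 25.9 in 5xFAD vehicle mice and 21.8, 38.7, 28.7 and 13.4 in non-transgenic mice. The non-transgenic mice ran from 13.4 to 38.7 and overlapped both other groups. Its change was 0.47 ± 0.29 log2 units (SE) in 5xFAD vehicle against non-transgenic mice (limma, adjusted p = 0.327), turning sign after quantile normalisation, and 0.59 ± 0.29 in 5xFAD TPPU against non-transgenic mice (limma, adjusted p = 0.398). The interval of the second ran from 0.962-fold to 2.35-fold, the widest of the 42 genes.

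Kdm3a, a lysine 9 demethylase, had 695, 623, 619 and 668 normalised counts in 5xFAD TPPU mice, 809, 667, 713 and 667 in 5xFAD vehicle mice and 657, 697, 621 and 652 in non-transgenic mice. Its highest value was that of 5xFAD vehicle mouse 1, and the groups overlapped. Kdm4a, which acts on lysines 9 and 36, had 527, 517, 485 and 552 normalised counts in 5xFAD TPPU mice, 605, 536, 534 and 584 in 5xFAD vehicle mice and 527, 567, 556 and 604 in non-transgenic mice. Its change in 5xFAD TPPU against non-transgenic mice was −0.11 ± 0.08 log2 units (SE; limma, adjusted p = 0.638). The flavin-dependent lysine 4 demethylases Kdm1a and Kdm1b ranged from 1696 to 2201 and from 133 to 253. Neither passed the test on the deposited scale. Kdm1a was called lower in 5xFAD vehicle against non-transgenic mice under median centring and quantile normalisation.

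Among the deacetylases and corepressors, Hdac2, a class I deacetylase studied as a brake on memory genes, had 2473, 2485, 2501 and 2317 normalised counts in 5xFAD TPPU mice, 1999, 2330.4, 2118 and 2179.7 in 5xFAD vehicle mice and 2428, 2074, 2409 and 2701 in non-transgenic mice. The 4 5xFAD TPPU mice lay above 3 of 4 5xFAD vehicle mice, and only 5xFAD TPPU mouse 4 lay below the remaining one, 5xFAD vehicle mouse 2. Its level was 2444 ± 85.4 in 5xFAD TPPU mice, 2157 ± 138 in 5xFAD vehicle mice and 2403 ± 256 in non-transgenic mice (n = 4 each, SD). The change was 0.18 ± 0.08 log2 units (SE) in 5xFAD TPPU against 5xFAD vehicle mice (limma, adjusted p = 0.273) and −0.15 ± 0.08 in 5xFAD vehicle against non-transgenic mice (limma, adjusted p = 0.255). Its non-transgenic mice differed as widely, from 2074 to 2701. When each mouse was centred on its median, the second change was −0.44 and was called, with an adjusted p of 0.0161, and after quantile normalisation it was −0.37, with an adjusted p of 0.0281 (limma).

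Sirt1, a deacetylase that depends on NAD, had 477, 425, 455 and 449 normalised counts in 5xFAD TPPU mice, 511, 433, 581 and 523 in 5xFAD vehicle mice and 512, 466, 456 and 443 in non-transgenic mice. The highest value belonged to 5xFAD vehicle mouse 3 and the lowest to 5xFAD TPPU mouse 2. Its change was 0.12 log2 units in 5xFAD vehicle against non-transgenic mice (limma, adjusted p = 0.477) and −0.17 in 5xFAD TPPU against 5xFAD vehicle mice (limma, adjusted p = 0.377), and both signs turned under both scalings. Hdac1, the closest relative of Hdac2, ranged from 315 to 575, Hdac4, a class II deacetylase, from 466 to 719.6, and the corepressor scaffolds Sin3a and Ncor1 from 735 to 882 and from 2107 to 2382. Ncor1 had one of the smallest SDs within groups, with estimates between −0.02 and 0.06 log2 units in the 3 comparisons on the deposited scale, and all 3 of its signs turned under both scalings.

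The acetyltransferases Ep300 and Crebbp encode p300 and CBP, paralogous coactivators that acetylate histones at enhancers. Ep300 had 1545, 1365, 1367 and 1715 normalised counts in 5xFAD TPPU mice, 1736, 1546, 1869.7 and 1853 in 5xFAD vehicle mice and 1618, 1718, 1544 and 1469.6 in non-transgenic mice. The 5xFAD TPPU mice lay below the 5xFAD vehicle mice except that 5xFAD TPPU mouse 4 was above 5xFAD vehicle mouse 2. The level was 1498 ± 167 in 5xFAD TPPU mice and 1751 ± 149 in 5xFAD vehicle mice (n = 4 each, SD), a change of −0.23 ± 0.09 log2 units (SE), or 0.854-fold with an interval of 0.740 to 0.986 (limma, adjusted p = 0.241). Crebbp had 3085, 3222, 2886 and 3591 normalised counts in 5xFAD TPPU mice, 3770.4, 3332, 3341 and 3554 in 5xFAD vehicle mice and 3325, 3839, 3465 and 3111 in non-transgenic mice. It had an estimate of −0.13 in the same comparison (limma, adjusted p = 0.439), which turned sign under median centring, and 5xFAD TPPU mouse 4 was above 3 of the 4 5xFAD vehicle mice.

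Kat2a, the acetyltransferase GCN5, had 1074, 1050.1, 1023 and 1033 normalised counts in 5xFAD TPPU mice, 982, 1112, 1093 and 1074 in 5xFAD vehicle mice and 1034, 1059, 994 and 1060.2 in non-transgenic mice. All 12 values lay between 982 and 1113. Its paralogue Kat2b, also called PCAF, had 537, 526, 653 and 560.0 normalised counts in 5xFAD TPPU mice, 634, 569, 658 and 649.7 in 5xFAD vehicle mice and 676, 679, 532 and 692 in non-transgenic mice. All 4 5xFAD TPPU values lay below 3 of the 4 non-transgenic values, mouse 3 of the non-transgenic group being the exception, and the change was −0.18 ± 0.11 log2 units (SE; limma, adjusted p = 0.538). Hat1, which acetylates newly made histone H4, ranged from 756 to 1052 and did not pass the test on the deposited scale. Hat1 and Kat2b were called lower in 5xFAD vehicle against non-transgenic mice under both scalings.

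Of the readers, Brd2 and Brd3 encode bromodomain proteins of the BET family, which bind acetylated histones. Brd2 had 3389, 3126, 2945 and 2825 normalised counts in 5xFAD TPPU mice, 3387, 3435, 3701 and 3121 in 5xFAD vehicle mice and 3036, 3273, 2834 and 2982 in non-transgenic mice. In 5xFAD vehicle mice 3 of 4 values lay above all non-transgenic values. The change was 0.17 ± 0.08 log2 units (SE) in 5xFAD vehicle against non-transgenic mice (limma, adjusted p = 0.184) and −0.15 ± 0.08 in 5xFAD TPPU against 5xFAD vehicle mice (limma, adjusted p = 0.331). Both signs turned when each mouse was centred on its median.

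Brd3 had 968, 937, 991 and 1046 normalised counts in 5xFAD TPPU mice, 1044, 978, 1233 and 1171 in 5xFAD vehicle mice and 971, 1101, 980.2 and 942 in non-transgenic mice. Mice 3 and 4 of the 5xFAD vehicle group had the highest 2 values, and the other 2 lay among the rest. The changes were 0.14 ± 0.09 log2 units (SE) in 5xFAD vehicle against non-transgenic mice (limma, adjusted p = 0.308) and −0.16 ± 0.09 in 5xFAD TPPU against 5xFAD vehicle mice (limma, adjusted p = 0.349), and both signs turned under both scalings. Smarca4, the BRG1 ATPase of the SWI/SNF remodeller, ranged from 1916 to 2501, its partner subunit Arid1a from 920.0 to 1198, and the histone chaperone Hira from 870.3 to 1142. None of these 3 passed the test in any comparison on the deposited scale.

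Paralogous pairs were compared as log2 ratios within each mouse, which do not depend on the scaling of a sample. For 8 pairs and 3 comparisons, 24 exact two-sided permutation tests were run, each over 70 arrangements with a smallest possible p of 0.0286. Hdac1 over Hdac2 had the smallest p in 5xFAD vehicle against non-transgenic mice. Its log2 ratio was −2.29 ± 0.12 in 5xFAD vehicle mice and −2.52 ± 0.16 in non-transgenic mice (n = 4 each, SD), a difference of 0.23 (exact permutation p = 0.0571, adjusted over 24 tests 0.960). In 5xFAD TPPU against 5xFAD vehicle mice the smallest p belonged to Crebbp over Ep300, with 1.09 ± 0.10 in 5xFAD TPPU mice and 1.00 ± 0.14 in 5xFAD vehicle mice (n = 4 each, SD; exact permutation p = 0.314). In 5xFAD TPPU against non-transgenic mice it belonged to Kat2a over Kat2b, with 0.88 ± 0.17 in 5xFAD TPPU mice and 0.69 ± 0.14 in non-transgenic mice (n = 4 each, SD; exact permutation p = 0.114). The adjusted p was at least 0.960 in all 24 tests. With a smallest possible p of 0.0286, no pair could have passed alone after adjustment over 24 tests. These values therefore cannot show that the ratios were alike. A ratio of 2 probes has no meaning as a ratio of transcripts, since probes differ in efficiency. The ratios above therefore serve only to compare groups.

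Another 21 chromatin genes of the panel, a list that includes the X- and Y-linked demethylases, were tested in the same fit, and 0 were called in each comparison, against 18.7%, 0% and 0% of all genes. In 5xFAD vehicle against non-transgenic mice 15 of 21 estimates were above 0, against 72.2% of all genes, with a median of 0.04 log2 units. The count was 6 of 21 in 5xFAD TPPU against 5xFAD vehicle mice, against 29.6%, with a median of −0.05. The smallest p in both was that of Sall1, a repressor of transcription that marks microglia in the brain. It averaged 858 ± 154 in 5xFAD vehicle mice and 631 ± 42.2 in non-transgenic mice (n = 4 each, SD), a change of 0.43 ± 0.15 log2 units (SE; limma, adjusted p = 0.0706), and its change in 5xFAD TPPU against 5xFAD vehicle mice was −0.33 ± 0.15 (limma, adjusted p = 0.273). Kdm2a was next in the first comparison, at 0.13 (limma, adjusted p = 0.319), and Kdm4b in the second, at −0.17 (limma, adjusted p = 0.511). The signs of both turned under median centring. In 5xFAD TPPU against non-transgenic mice the lysine 36 demethylase Kdm2b had 420 ± 19.5 in 5xFAD TPPU mice and 358 ± 34.6 in non-transgenic mice (n = 4 each, SD), a change of 0.23 ± 0.10 (SE; limma, adjusted p = 0.288), followed by Apex1 at 0.16 (limma, adjusted p = 0.461).

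Within the non-transgenic group, mouse 2 was the highest in 23 of 42 chromatin genes, against 36.1% of all genes tested, and mouse 4 the lowest in 17, against 33.4%. In 13 genes both held, against 20.6% of all genes: Dnmt1, Dnmt3a, Jarid2, Setd1a, Setd1b, Setd2, Setdb1, Kmt2a, Kdm4d, Ep300, Crebbp, Brd3 and Hira. In 5 genes the order was opposite, against 11.4%, with mouse 4 the highest and mouse 2 the lowest: Mbd2, Bmi1, Ehmt2, Hdac1 and Hdac2. Mouse 4 is the non-transgenic mouse with the high Ttr level given above, and whether that bears on the order was not tested. In the 5xFAD TPPU group mouse 1 was the highest in 17 genes, and in the 5xFAD vehicle group mouse 3 in 15 and mouse 1 the lowest in 16. The shares over all genes are not given for these groups, so the counts cannot be read as particular to the chromatin genes. In the 5xFAD vehicle group, mouse 3 also had the highest median over the whole panel, 400 normalised counts, and mouse 1 the lowest, 308. The part of these medians in the order was not tested. Mouse 1 of that group also had a high Ttr level and the lowest oligodendrocyte markers of the 12, −1.04 log2 units from the non-transgenic mean on average, and their part in its low values was not tested.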

How the data were processed

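Hippocampal total RNA of 12 mice was measured on an nCounter panel of 770 transcripts. The deposited values were used as signal: probe counts that the authors scaled with the geometric mean of 10 housekeeping genes, per the labels' protocols. In every mouse 100% of values were whole multiples of 1 factor within 0.01. Whether the instrument software subtracted a background is not given in these sources, and counting error sets the precision of low genes.

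Genes averaging at least 20 normalised counts were tested (695 of 756, with 61 left out) with limma 3.58.1 (lmFit, eBayes with trend) in R 4.3.3 on log2(value + 1). The 3 groups entered 1 fit with 9 residual degrees of freedom. A fold change is on that scale, which understates changes of low genes. P-values were adjusted by Benjamini-Hochberg over all genes tested and called under 0.05. The procedure was tested on simulated data. Paralogue ratios were compared by exact permutation in scipy 1.17.1.

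Chromatin genes, other gene lists and marker lists were chosen with earlier results of these data known. Full values are given for the 2 genes of each class with the smallest p in the transgene and TPPU comparisons and for the 5 with the smallest p in each comparison. Alternatives were other pseudocounts, filters, scalings, variance models, blocks and omitted mice. The labels name each sample as a separate mouse of its group by number only, so p-values measure the spread between these samples. Promoter windows came from RefSeq (GRCm38.p6).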

Additional observations from a re-analysis of the deposited data

Results flagged for a closer look

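In 4 of the 126 gene-by-group sets of 4 mice, 1 mouse stood apart from the other 3 by Dixon's criterion, which chance meets in about 1 set in 20. Ezh2 was at 415 normalised counts in non-transgenic mouse 4, against 526 to 532 in the other 3 non-transgenic mice. Ash2l was at 767 in the same mouse, against 616 to 625. Kat2b was at 532 in non-transgenic mouse 3, against 676 to 692. Hdac2 was at 2317 in 5xFAD TPPU mouse 4, against 2473 to 2501 in the other 3 mice of that group.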

How the results depend on the processing

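The count of chromatin genes called was 0 in each comparison under every alternative but 3. Centring each mouse on its median gave 8 and quantile normalisation 9 in 5xFAD vehicle against non-transgenic mice, and leaving out 1 mouse at a time gave 0 to 1 in 5xFAD TPPU against non-transgenic mice. The 1 was Dot1l, without 5xFAD TPPU mouse 2, which had the highest Dot1l value of its group. Over those omissions the median log2 change of the chromatin genes ran from 0.03 to 0.08 in 5xFAD vehicle against non-transgenic mice, −0.09 to −0.06 in 5xFAD TPPU against 5xFAD vehicle mice and −0.04 to 0.0047 in 5xFAD TPPU against non-transgenic mice.

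Under median centring these medians were −0.23, 0.12 and −0.10 in the same order, and under quantile normalisation −0.22, 0.071 and −0.12. Those of all genes after quantile normalisation were −0.15, 0.070 and −0.066. Among the 5 genes with the smallest p in each comparison, median centring turned the sign of Ehmt2 (−0.15), Brd2 (−0.11) and Brd3 (−0.14) in the first comparison and of Brd2 (0.050) and Setd2 (0.062) in the second. Among the same genes quantile normalisation turned that of Brd3 (−0.087) and Kdm4d (−0.12) in the first and of Dot1l (0.0029) in the second. Both scalings remove the shift of the array median given in the report.

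With the replicate block the chromatin genes called were 0, 0 and 0. Whether samples with the same number deviated together was unclear. Their 12 correlations ran from −0.37 to 0.39, with 6 over 0.1. Across groups, 5 samples correlated best with a sample of their own number. The numbers were not taken as pairs. Blocking on the Y-linked genes, or omitting the pair of mice high in Ttr, gave counts of 0 as well. Centring on the chromatin genes' own median was added after seeing the data. Kdm4d has no value at a minimum mean of 50. The planned count tests (edgeR's quasi-likelihood test and DESeq2) were not run, and the values were treated as normalised signal. Low counts limit Kdm4d most.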
